A study of Mus musculus with 8 samples.

Results

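The epidermal growth factor (EGF) ligands and the ERBB receptors were examined in leukemic mouse spleen through 9 genes, namely Tgfa, Areg, Ereg, Hbegf, Btc and Egf for the ligands and Egfr, Erbb2 and Erbb3 for the receptors. Tgfa was chosen by its difference between the genotypes in these arrays, and its relatives were selected on family membership with the same results known. The genotype differences of the members are therefore given as a description, with no test of the family. The platform annotation placed 19 probe sets, of 45037 that are not controls, in 8 of the 9 genes. No probe set carried the symbol Areg in the annotation used here, so Areg was not analysed here.

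The truncated group was made up of chimeras that expressed CBFb-SMMHCd179-221, a form of the leukemia fusion CBFb-SMMHC that lacks a segment involved in high-affinity RUNX1 binding, and whose leukemic spleens were taken 3 weeks after birth, with no ENU treatment named. The full-length group carried CBFb-SMMHC and was taken 2 months after treatment with the mutagen ENU. Its mice are chimeras in the sample labels and knock-in mice in the series text. Each genotype was represented by 4 arrays from 2 animals, with 1 array of animal 1 and 3 arrays of animal 2. Genotype, age and ENU treatment cannot be told apart, strain and sex are not given in the sources used here, and the share of spleen cells that carried a fusion is unknown in either group.

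Over all probe sets, array 1 of animal 2 correlated more closely with the array of animal 1 (r = 0.987 in truncated and 0.989 in full-length mice) than with arrays 2 and 3 of its own animal (0.976 and 0.976 in truncated, 0.954 and 0.953 in full-length mice). Arrays 2 and 3 correlated with each other at 0.997 in either genotype. The labels give no reason for this division. Means and SDs over 2 animals rest on the animal numbers as labelled, and would combine the arrays wrongly if array 1 of animal 2 came from another animal. Results that depend on it are given for array 1 of each animal and for arrays 2 and 3 of animal 2 apart. Of the marker lists for the labelled cells, all 7 myeloid progenitor genes lay above the median of all probe sets (log2 4.75) in at least 2 animals. A gene could meet this through 1 genotype alone, as Cd34 did through the truncated mice. Cd34 was at 7.48, 7.37, 5.46 and 5.23 in truncated and 3.47, 3.32, 5.28 and 5.19 in full-length arrays. In full-length mice the median of the myeloid progenitor list was 5.55 and 4.86 in array 1 of each animal, against 10.36 and 10.35 in arrays 2 and 3. The list median of the truncated arrays lay between 9.40 and 11.40. The members did not all move together. Myb was at 10.30 and 9.99 in array 1 of each full-length animal, against 9.49 and 9.69 in arrays 2 and 3. By value 5 of the 7 were higher in truncated mice and 2 lower, Kit by -0.57 and Myb by -0.63. These are bulk samples, so fewer cells of a type and less RNA per cell cannot be told apart.

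EGF ligands are made as membrane-bound precursors that proteases of the ADAM family cut free, and the released domain binds EGFR on the same or a neighbouring cell. Ligand binding pairs EGFR with a receptor of the ERBB family, which can be EGFR itself. ERBB2 binds no known ligand, ERBB3 binds neuregulins and has little kinase activity of its own, and the pairs signal through RAS and ERK and through PI3 kinase. The family is best known from epithelia, whereas blood cells, macrophages and mast cells among them, are known mainly as producers of ligands.

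Tgfa, which encodes transforming growth factor alpha, was the member with the widest gap between the genotypes. Its probe set 1421943_at had log2 expression values of 4.14 in truncated animal 1 and of 3.76, 4.19 and 4.27 in arrays 1 to 3 of truncated animal 2. In full-length mice the values were 7.38 in animal 1 and 7.48, 6.62 and 6.52 in animal 2. Every truncated array lay below every full-length array, and the truncated values lay below the median of all probe sets. The means were 4.10 ± 0.05 in truncated and 7.13 ± 0.36 in full-length mice (SD, n = 2 animals each), a log2 difference of -3.02, or 8.12-fold. RMA draws dim values together, so this fold is understated if the transcript was near background in truncated mice.

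The size of the Tgfa difference varied between the sets of arrays. It was -3.48 in array 1 of each animal, with means of 3.95 in truncated and 7.43 in full-length mice. In arrays 2 and 3 of animal 2 it was -2.34, with means of 4.23 and 6.57 in the same order. The full-length arrays with the higher Tgfa values were also high in erythroid genes. The median of the 6 measured of 8 erythroid markers was 10.75 and 10.83 in array 1 of each full-length animal, against 8.22 and 8.21 in arrays 2 and 3. The summed level of these markers, on a log2 scale, ranged from 11.06 to 12.38 in truncated and from 10.83 to 13.49 in full-length arrays, with no marker below the median of all probe sets in every array. In arrays 2 and 3 of animal 2 the erythroid medians were 8.36 and 8.35 in truncated and 8.22 and 8.21 in full-length mice, while Slc4a1 differed by 1.20, Epb42 by 1.10 and Klf1 by -0.35. Of 7 mast cell and basophil markers, 3 were higher and 4 lower by value in truncated mice. All truncated arrays lay below all full-length arrays for 3 of them, against 5.9% of all genes. Tpsab1 was at 4.68, 4.74, 4.45 and 4.73 in truncated and 7.20, 7.48, 6.51 and 6.45 in full-length arrays, while Cpa3 differed by 3.29. The list median was 7.20 and 7.48 in array 1 of each full-length animal, against 10.80 and 10.88 in arrays 2 and 3. The part of erythroid or mast cells in the Tgfa values was not tested.

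The other Tgfa probe sets showed no such gap. Probe set 1450421_at lay between 5.21 and 5.54 in truncated and between 5.32 and 5.62 in full-length arrays, a difference of -0.05. Probe set 1421942_s_at lay between 5.04 and 5.23 in truncated and between 5.12 and 5.62 in full-length arrays, a difference of -0.17. All 3 probe sets share 1 source sequence in the platform annotation, so the sequence from which they were designed does not set them apart. An identifier that ends in s_at marks probes that can match related sequences. The Tgfa difference thus rests on 1 of 3 probe sets.

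**Figure D1:**
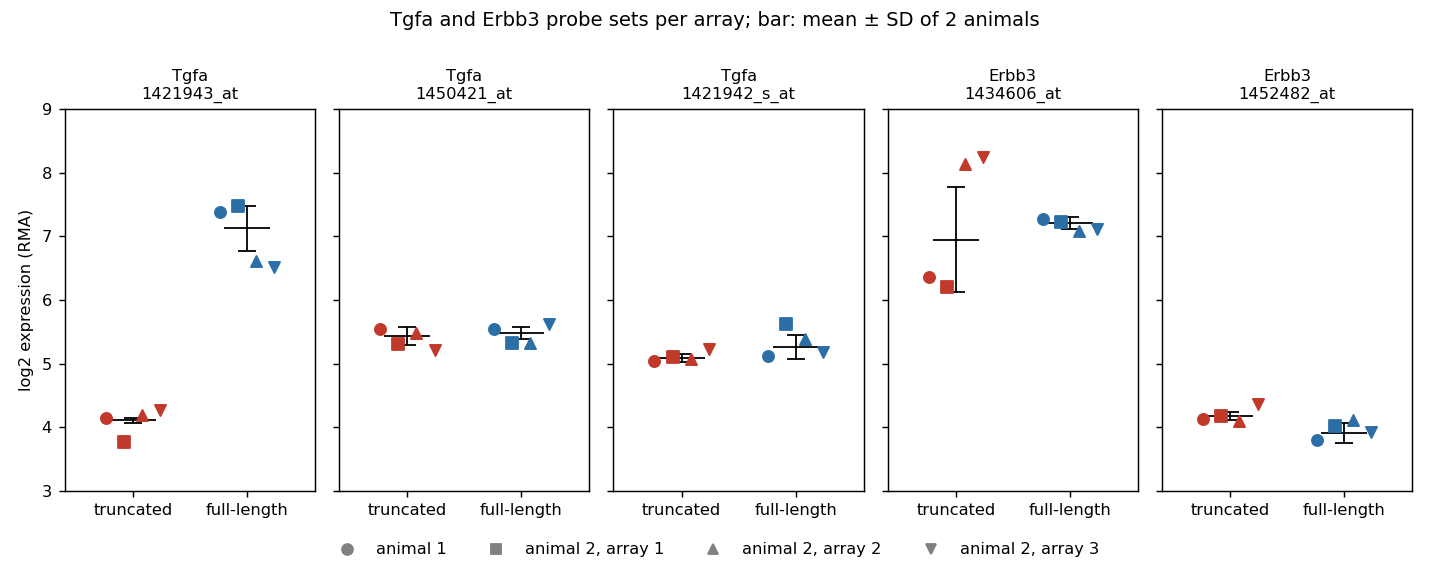
Log2 expression (vertical axis) of the 3 Tgfa and 2 Erbb3 probe sets in each of the 8 arrays, truncated in red to the left of full-length in blue, with symbols for the animal and array and bars for the mean ± SD of 2 animals. The truncated arrays of Tgfa 1421943_at sit between 3.76 and 4.27, below all full-length arrays, and those of Erbb3 1434606_at split into 6.36 and 6.21 against 8.14 and 8.25.

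The promoter of Tgfa is shown because this gene differed most and because the fusion is known to act on the DNA-binding factor RUNX1. The sequence covers 250 bases before to 50 after the start used in the RefSeq promoter table (RefSeq, GRCm38.p6, chr6:86194972-86195271, plus strand), with GC boxes in capitals.
Tgfa promoter: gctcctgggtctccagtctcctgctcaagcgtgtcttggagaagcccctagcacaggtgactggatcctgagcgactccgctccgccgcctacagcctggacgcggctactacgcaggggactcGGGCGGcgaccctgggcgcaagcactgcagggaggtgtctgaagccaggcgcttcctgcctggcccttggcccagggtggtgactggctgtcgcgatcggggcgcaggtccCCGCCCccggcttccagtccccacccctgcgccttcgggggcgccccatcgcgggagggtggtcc
It holds 2 GC boxes (GGGCGG or CCGCCC, on either strand), which begin 126 and 15 bases before that start. The gene's own listed start in RefSeq lies 184 bases upstream of it, within the window, so both boxes lie after the listed start. A GC box was found in 35.7% of the 32851 promoters of the table. The GC content of the Tgfa promoter was 70.7%, against a median of 52.7% over all promoters. The RUNX motif TGTGGT or its reverse complement ACCACA was not found in this window or in the 7 promoters of 6 members in the table, and 16.8% of all promoters hold it. Other forms of the RUNX motif, and sites outside the windows, were not searched.

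The other ligands were dim and lay close together. Egf, the founding ligand, had values of 3.66, 3.69, 3.71 and 3.87 in truncated arrays and 4.4, 3.94, 3.83 and 3.75 in full-length arrays, in the order animal 1 and arrays 1 to 3 of animal 2. The highest value was that of full-length animal 1, and the genotypes overlapped. Their means were 3.71 ± 0.07 in truncated and 4.12 ± 0.40 in full-length mice (SD, n = 2 animals each). The Egf difference of -0.41 was 0.0025 in arrays 2 and 3 of animal 2. Hbegf encodes heparin-binding EGF-like growth factor, which in humans is also the receptor for diphtheria toxin. Its probe set 1418349_at lay between 4.29 and 4.78 in truncated and between 4.36 and 4.66 in full-length arrays. The other, 1418350_at, lay between 3.82 and 4.44 in truncated and between 3.91 and 4.31 in full-length arrays. Btc encodes betacellulin, a ligand of EGFR and ERBB4, and its probe sets differed by 0.02 (1435541_at) and -0.10 (1421161_at). Ereg, which encodes epiregulin, lay between 2.38 and 2.71 in truncated and between 2.32 and 2.49 in full-length arrays. All 6 probe sets of these 4 ligands lay below the median of all probe sets in at least 3 of the 4 animals. The table holds no detection calls, so a dim value does not show that a transcript was absent.

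Among the receptors, Egfr, the receptor of all member ligands measured here, showed no gap between the genotypes. Its probe set 1460420_a_at had values of 6.96, 6.73, 6.94 and 7.08 in truncated arrays and 6.70, 6.93, 6.90 and 6.88 in full-length arrays, in the order animal 1 and arrays 1 to 3 of animal 2. The arrays overlapped, and the difference was 0.13 (means 6.94 ± 0.03 in truncated and 6.80 ± 0.14 in full-length mice, SD, n = 2 animals each). The remaining Egfr probe sets had differences between -0.11 (1435888_at) and 0.09 (1454313_at), with overlapping arrays in each. Probe set 1454313_at reached 6.05 in truncated animal 1, while the other truncated arrays lay between 5.26 and 5.40 and the full-length arrays between 5.38 and 5.77. Erbb2, the receptor without a ligand of its own, lay between 4.51 and 4.96 in truncated and between 4.66 and 4.75 in full-length arrays, a difference of 0.08.

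Erbb3, the neuregulin receptor, varied between arrays of the same genotype. Its probe set 1434606_at had values of 6.36 in truncated animal 1 and 6.21, 8.14 and 8.25 in arrays 1 to 3 of truncated animal 2. In full-length mice the values were 7.28 in animal 1 and 7.23, 7.09 and 7.12 in animal 2. The truncated arrays lay on either side of the full-length arrays, which stayed within 0.19 of each other, while the truncated arrays spanned 2.04. The means were 6.95 ± 0.83 in truncated and 7.21 ± 0.10 in full-length mice (SD, n = 2 animals each), a difference of -0.27 that is smaller than the SD of the truncated mice. In array 1 of each animal the difference was -0.97, and in arrays 2 and 3 of animal 2 it was 1.09, so its direction turned between the sets of arrays. Array 1 of truncated animal 2 is labelled as the same animal as the arrays with high values.

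The second Erbb3 probe set did not split in this way. Probe set 1452482_at lay between 4.09 and 4.37 in truncated and between 3.80 and 4.11 in full-length arrays. Its difference was 0.26, with 0.25 in array 1 of each animal and 0.21 in arrays 2 and 3. It lay below the median of all probe sets in all 4 animals.

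Several marker lists also differed between the truncated arrays that Erbb3 parts. The median of the 5 measured of 6 B cell markers reached 5.83 and 6.0 in the last 2 arrays of truncated animal 2, against 5.10 and 4.67 in the other truncated arrays. It lay between 4.38 and 4.73 in full-length arrays. The summed level of these markers, on a log2 scale, ranged from 7.56 to 8.54 in truncated and from 6.94 to 7.16 in full-length arrays. Of the defining B cell genes, Pax5 lay below the median of all probe sets in every array and did not divide the truncated arrays. The other measured B cell markers did. Ms4a1 was at 6.41 and 6.31 in the last 2 arrays of truncated animal 2, against 3.53 and 3.93 in the other truncated arrays. In the same order, Blnk was at 5.73 and 5.94 against 5.1 and 4.67, and Cd79b at 7.13 and 7.16 against 6.49 and 6.61. Cd79a was also higher in the last 2 arrays. The erythroid list ran the other way in truncated arrays, at 8.36 and 8.35 in arrays 2 and 3 of animal 2 and at 9.21 and 9.47 in the others. The myeloid progenitor median was 11.31 and 11.40 in those 2 arrays and 9.40 and 9.54 in the other truncated arrays, and the endothelium median was 3.95 and 4.19 against 5.18 and 5.40. The epithelium median did not divide them, at 4.76 and 4.91 against 4.89 and 4.79, although its member Cdh1, an adhesion gene, was at 6.28 and 6.07 against 4.89 and 5.12. The part of other cell types in the Erbb3 values was not tested.

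**Figure D2:**
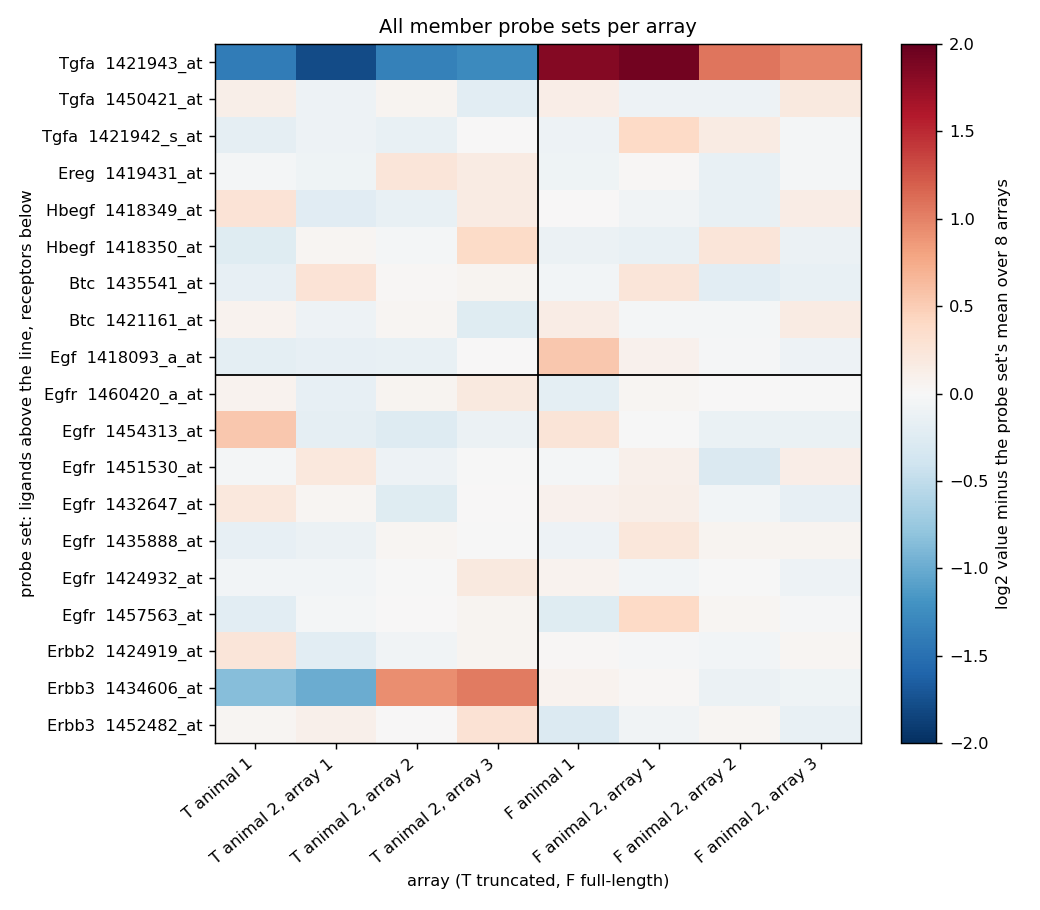
All 19 member probe sets (rows, ligands above the line and receptors below) in the 8 arrays (columns, truncated left of full-length), coloured by the log2 value minus the mean of the probe set over the arrays. Tgfa 1421943_at divides by genotype and Erbb3 1434606_at divides the truncated arrays, while no other probe set ranges over more than 0.79 log2 units.

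Of the 19 probe sets, 6 passed a filter that asked for at least 2 of 4 animals above the median of all probe sets, and these belong to Tgfa, Egfr and Erbb3. A member could pass this filter through the group in which it was high, as Tgfa 1421943_at did. The truncated arrays lay below all full-length arrays for 1 member probe set, Tgfa 1421943_at, against 6.07% of all probe sets, and above them for 0 member probe sets, against 6.26%. By value 10 of the 19 were higher and 9 lower in truncated mice. The median difference was 0.0077, against 0.012 over all probe sets, and the median size of the difference was 0.098, against 0.18 over all probe sets. In limma on the animal means, 0 of 19 probe sets had an adjusted p under 0.05, against 0% of all probe sets, and 1 had an unadjusted p under 0.05, against 9.96% of all probe sets. With the replicate block, which treats arrays of an animal as independent samples although they are not, 1 of 19 passed, Tgfa 1421943_at at -2.91, against 3.76% of all probe sets. The choice of Tgfa by this contrast fixes that call, and it adds no support.

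**Figure D3:**
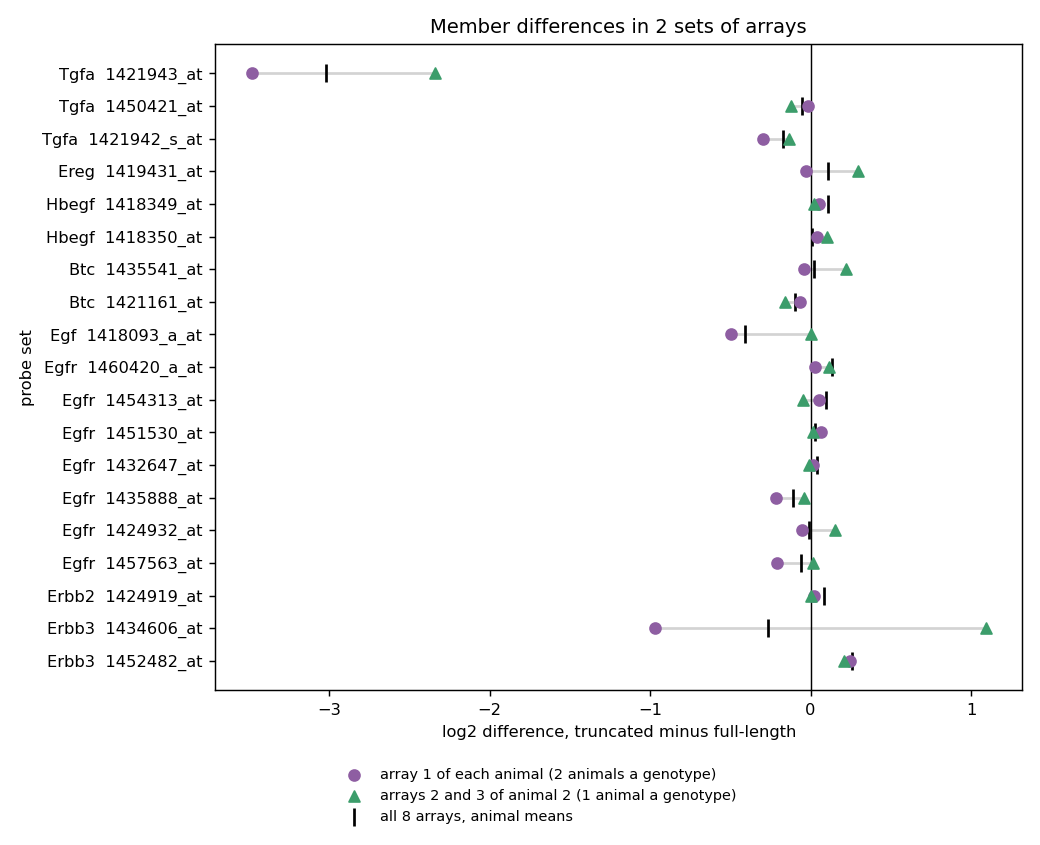
Log2 difference (horizontal axis, truncated minus full-length) of each member probe set, in array 1 of each animal (circles), in arrays 2 and 3 of animal 2 (triangles) and over all 8 arrays as animal means (bars). Tgfa 1421943_at lies at -3.48 and -2.34, and Erbb3 1434606_at at -0.97 and 1.09 on either side of 0.

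The wider pathway was described through 76 genes in 5 lists, each gene represented by its brightest probe set. None of the 76 passed (limma, adjusted p under 0.05), 17 (22.4%) had an unadjusted p under 0.05, against 11.3% of all genes, and 42 had higher and 34 lower values in truncated mice. All truncated arrays lay above all full-length arrays for 14 genes (18.4%), against 7.94% of all genes, and below them for 2 genes (2.63%), against 5.9%. The median difference of the 76 genes was 0.036, against 0.033 over all genes. With the replicate block 9 passed, 8 with higher and 1 with lower values, against 4.66% of all genes.

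Proteases and helpers that release ligands had 8 of 11 genes with higher values in truncated mice, and 0 passed. The median difference of the list was 0.23. Adam8, a metalloprotease of myeloid cells, was at 7.12 ± 0.29 in truncated and 5.64 ± 0.03 in full-length mice (SD, n = 2 animals each), a difference of 1.48 that was 1.49 in array 1 of each animal and 1.65 in arrays 2 and 3 of animal 2. Adam15 differed by 0.78, by a probe set that can match related sequences, and its other probe sets by 0.37 to 0.73. The difference of 0.78 was 0.86 in array 1 of each animal and 0.32 in arrays 2 and 3 of animal 2. Adam17, the protease best known for releasing TGF alpha, was picked out after its values were seen. It had 8.14, 8.17, 7.97 and 8.03 in truncated arrays, against 7.70, 7.31, 7.50 and 7.55 in full-length arrays. These did not overlap, but the other Adam17 probe sets differed by -0.05 and 0.27.

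Inhibitors of the receptors and genes of receptor turnover had 8 of 16 genes with higher values and 8 with lower values in truncated mice, a median difference of 0.04, and 0 passed. Ptpn1, a tyrosine phosphatase that acts on activated receptors, was at 9.30 ± 0.11 in truncated and at 8.40 in full-length mice, where the animals differed by less than 0.01. Cbl, a ubiquitin ligase that marks activated EGFR for breakdown, differed by 0.74. The arrays of Ptpn1 and of Cbl did not overlap between the genotypes. In arrays 2 and 3 of animal 2 the differences were 0.76 for Ptpn1 and 0.36 for Cbl.

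The adaptors and proximal signaling genes had 12 of 25 genes with higher values, a median difference of -0.0038, and 0 passed. Plcg2, a phospholipase of blood cells, had 9.41, 9.12, 9.51 and 9.44 in truncated arrays, against 6.60, 6.67, 7.72 and 7.73 in full-length arrays. Its difference was 2.4, with 2.63 in array 1 of each animal and 1.75 in arrays 2 and 3 of animal 2. Vav3, a guanine nucleotide exchange factor, differed by 1.63, with other probe sets between 1.19 and 2.41. Plcg2 and Vav3 serve many receptors of blood cells besides ERBB receptors. Late neutrophil markers lay the same way without overlap in 7 of 7 genes, against 7.94% of all genes. Monocyte and macrophage markers did so in 8 of 8. The late neutrophil list median lay between 11.97 and 12.08 in truncated arrays, against 7.38, 7.24, 11.13 and 11.14 in full-length arrays. The monocyte and macrophage list median lay between 8.15 and 8.34 in truncated and between 6.0 and 6.95 in full-length arrays. The summed level of the late neutrophil markers, on a log2 scale, ranged from 15.03 to 15.21 in truncated and from 11.37 to 13.61 in full-length arrays. That of the monocyte and macrophage markers ranged from 11.72 to 12.21 in truncated and from 9.82 to 10.59 in full-length arrays. The part of either cell type in these values was not tested.

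Genes that respond to ERK had 8 of 18 with higher and 10 with lower values, a median difference of -0.12, and 0 passed. Egr1, an immediate-early transcription factor, had 8.34, 8.72, 10.78 and 10.85 in truncated arrays, against 10.84, 10.84, 10.26 and 10.35 in full-length arrays. Arrays 2 and 3 of truncated animal 2 were high and the other truncated arrays low, and the difference of -1.43 was -2.30 in array 1 of each animal and 0.51 in arrays 2 and 3. Etv5, an ETS factor induced by ERK, differed by -1.60, which was -1.97 in array 1 of each animal and 0.01 in arrays 2 and 3, and its other probe sets differed by -0.45 to -0.13. The 2 pathway genes whose truncated arrays all lay below the full-length arrays, named after their values were seen, were Rasa1, a RAS GTPase-activating protein of the adaptor list (-1.54), and Myc, a growth-promoting transcription factor (-0.69). The Rasa1 difference was -1.94 in array 1 of each animal and -0.57 in arrays 2 and 3 of animal 2.

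The remaining family members had higher values in truncated mice in 6 of 6 genes, with a median difference of 0.15, and 0 passed. Nrg4, a neuregulin that binds ERBB4, was at 4.62 ± 0.25 in truncated and 3.94 ± 0.34 in full-length mice (SD, n = 2 animals each), a difference of 0.68 without overlap between arrays. Nrg2 differed by 0.31, with overlap. Of the 6 genes, 1 had at least 2 animals above the median of all probe sets. Erbb4, the remaining receptor, lay between 2.28 and 2.50 in truncated and between 2.05 and 2.4 in full-length arrays.

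**Figure D4:**
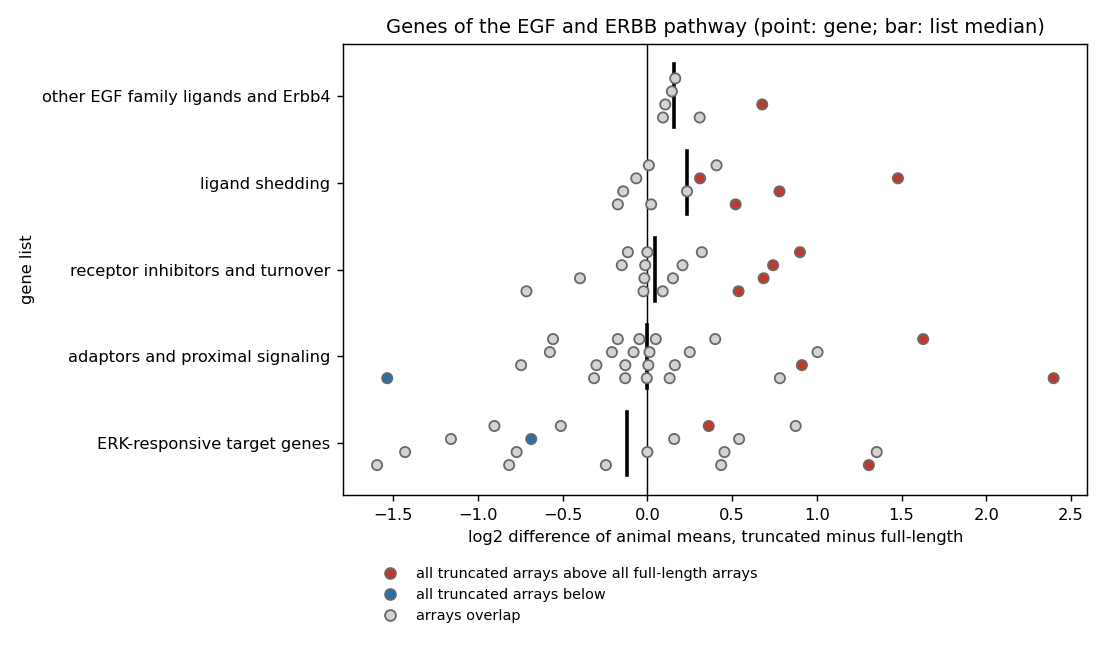
Log2 difference of animal means (horizontal axis, truncated minus full-length) of the 76 pathway genes in 5 lists, with a black bar for the median of each list and colour for genes whose arrays did not overlap. The list medians lie between -0.12 and 0.23, with Plcg2 at 2.4 as the point farthest to the right.

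The genes whose values followed Tgfa 1421943_at most closely over the 8 arrays were ranked among 11416 genes. Pearson's r was 0.997 for Sphk1 (sphingosine kinase), 0.994 for 2610005L07Rik and for Wdr91, 0.993 for Csrp3 and 0.992 for Camsap3. Sphk1 was at 5.79, 5.08, 5.69 and 5.90 in truncated arrays and at 10.06, 10.52, 9.33 and 9.40 in full-length arrays. As with Tgfa, array 1 of animal 2 was the lowest truncated and the highest full-length array. The lowest values of r were -0.998 for Tm6sf1 and for Nnt (the mitochondrial transhydrogenase), -0.995 for Rnpep, -0.994 for Galnt2 and -0.993 for Tpd52. The arrays come from 4 animals and share the genotype contrast for which Tgfa was chosen, so these values describe likeness and were given no p.

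The same ranking for Erbb3 1434606_at was added after its values were seen. The highest values of r were 0.995 for Ccnl1 (cyclin L1), 0.986 for Ifi27, 0.984 for F2, 0.983 for Siah2 and 0.98 for Orm1. F2, the prothrombin gene, was at 5.39, 5.39, 8.10 and 8.18 in truncated arrays and between 6.41 and 6.78 in full-length arrays. Orm1, which encodes an acute-phase protein, was at 4.17, 3.67, 7.61 and 7.76 in truncated arrays and between 5.06 and 5.35 in full-length arrays. In either gene the full-length arrays lay between the low and the high truncated arrays, as they did for Erbb3. The lowest values of r were -0.987 for Gemin7, -0.98 for Smad3, -0.977 for Znhit2, -0.973 for Rnf8 and -0.970 for Wdr41.

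**Figure D5:**
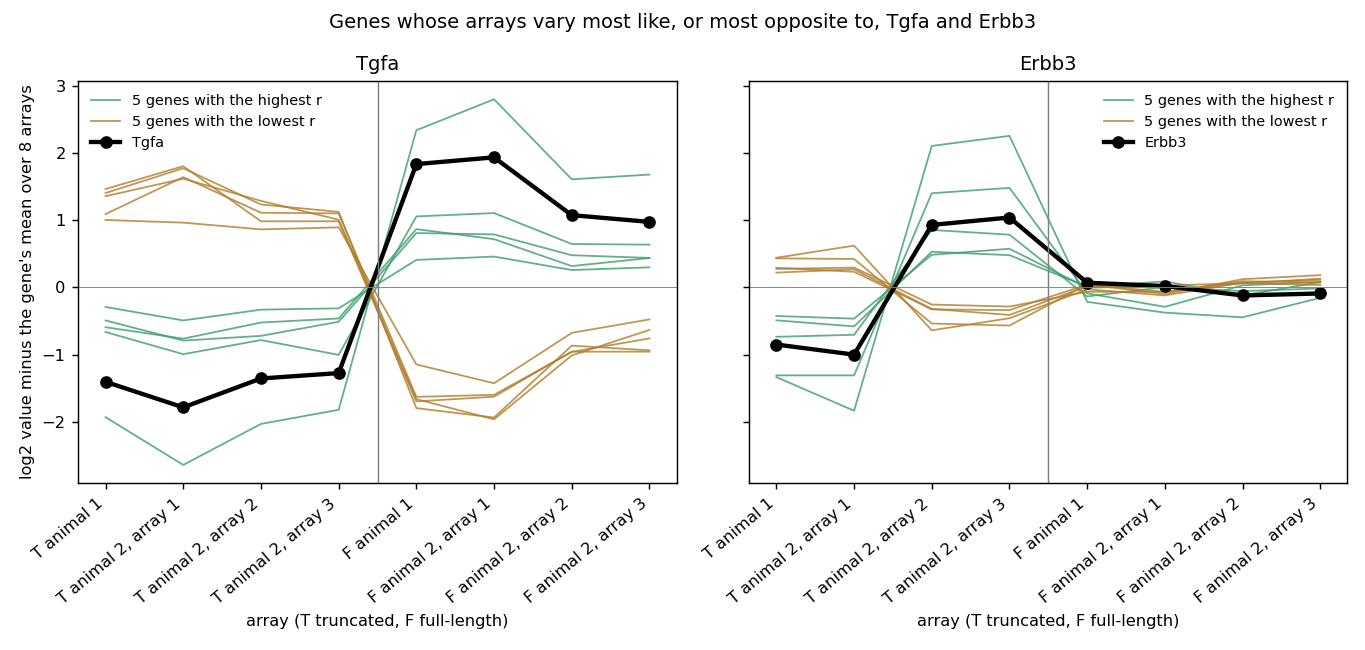
Log2 value minus the mean of each gene over the 8 arrays (vertical axis), by array with truncated left of full-length, for Tgfa and Erbb3 (black) and the 5 genes with the highest (green) and the 5 with the lowest (brown) Pearson's r with each. Tgfa and its companions part by genotype, while Erbb3 and its companions part arrays 2 and 3 of truncated animal 2 from the other truncated arrays.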

How the data were processed

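Total RNA of spleen cells from leukemic mice was hybridised to Affymetrix mouse arrays, and per the submitters' processing notes the authors processed the arrays with RMA (background correction, quantile normalization and probe summary). The deposited values are log2 expression of 45101 probe sets on 8 arrays. Their range shows the base of the logarithm. The platform annotation gave 1 symbol to 34945 probe sets, several to 932 and none to 9160, and 64 control probe sets were left out. RefSeq promoters were matched by symbol.

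The arrays of an animal were averaged, since nothing says that they are separate samples. The genotypes were compared by a linear model with moderated variances (limma 3.58.1, R 4.3.3) over all 45037 probe sets, with 2 residual degrees of freedom and Benjamini-Hochberg adjustment. The fit was tested on simulated data. With 2 animals a genotype, the smallest two-sided p of an exact permutation test is 0.333, so no such p is given, and the number of arrays limits the precision. The deviations of arrays with the same animal and array number in both genotypes correlated at 0.250, 0.113, 0.193 and 0.175, so those numbers, taken from the titles, were treated as pairs in the replicate block. Arrays with different numbers reached 0.197, so these values do not single out the numbered pairs.

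The members, gene lists, alternatives and the rule for named genes were chosen with earlier results of these data known. The rule took every member probe set, the 2 pathway genes of each list with the largest difference where none passed, and the 5 genes at each end of the likeness ranking. That ranking kept genes with at least 2 of 4 animals above the median of all probe sets.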

Additional observations from a re-analysis of the deposited data

Results flagged for a closer look

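Of 38 groups of 4 arrays, 2 held an array that stood far from the others, where chance would mark about 1 in 20 groups. Hbegf 1418350_at was at 4.31 in array 2 of full-length animal 2, while the other full-length arrays lay between 3.91 and 3.95. Egfr 1424932_at was at 3.17 in array 3 of truncated animal 2, while the other truncated arrays lay between 2.92 and 2.96. Both probe sets lay below the median of all probe sets in all 4 animals. The Erbb3 split was not marked in this way, since it parts 2 arrays from 2.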

How the results depend on the processing

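The direction of the Tgfa difference was fixed by its choice, since its genotypes do not overlap. The difference was -3.48 with array 1 of each animal, -2.47 without array 1 of either full-length animal, and -2.34 in arrays 2 and 3 of animal 2, and leaving out each array in turn gave -3.11 to -2.77. The count of member probe sets that passed was 0 in the main comparison. It was 1 with the animal as a random block, 1 with the replicate block (paired arrays) and 1 without arrays 2 and 3 of truncated animal 2, an alternative added after seeing the data, and Tgfa was that probe set in each. It was 2 with array 1 of each animal, where Erbb3 1434606_at also passed at -0.97. The count of pathway genes, 0 in the main comparison, was 3, 9, 1 and 24 in the same order. Among the members and the pathway genes, the replicate block changed no call besides these. Leaving out single arrays gave 0 for members and for pathway genes. The replicate block treats arrays of an animal as independent samples. The random block takes them as correlated, at 0.313 for all probe sets, but keeps 6 residual degrees of freedom, against 2 in the main comparison. Array 1 of each animal are the arrays with r = 0.987 and 0.989 between animals. Over all probe sets, array 1 of each animal gave 2730 higher and 2679 lower calls, the random block 294 and 94, the replicate block 975 and 720, and leaving out arrays 2 and 3 of truncated animal 2 gave 284 and 58, against 0 and 0 in the main comparison. Why the counts differ was not tested. Of the 19 member probe sets, 6 kept the sign of their difference in every alternative and 13 did not, among them Erbb3 1434606_at, from -0.97 to 1.09. Where an alternative leaves 1 animal in a genotype, that animal is assumed to vary like the others. Arrays 2 and 3 of animal 2 alone allow no test. The dim values limit what can be said of Ereg, Btc, Egf and Hbegf.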

Other observations

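Other genes of the pathway lists, picked out after their values were seen, differed in size or direction between the sets of arrays. Rhbdf1 (iRhom1, a cofactor of ADAM17) differed by 0.79 in array 1 of each animal and by -1.56 in arrays 2 and 3 of animal 2. Its values were 7.18, 6.90, 6.33 and 6.5 in truncated arrays and 6.34, 6.17, 8.02 and 7.94 in full-length arrays. Grb7, an adaptor that binds ERBB2, was at 5.05, 5.01, 5.55 and 5.20 in truncated arrays and at 4.98, 5.23, 7.60 and 7.62 in full-length arrays, a difference of -0.07 in array 1 of each animal and of -2.24 in arrays 2 and 3 of animal 2. Phlda1, an ERK-responsive gene, differed by 0.16 in array 1 of each animal and by 1.47 in arrays 2 and 3 of animal 2. Ccnd1 (cyclin D1), by contrast, differed by 1.51 and 1.11 in the same order, and its other probe sets by 1.21 and 1.32.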
